A study of Mus musculus with 22 samples.

Results

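Genes of the hypoxia response and of glycolysis were followed in mouse E14 embryonic stem cells that had been exposed to 10 compounds acting on chromatin. The set was a list of 37 gene symbols taken from what the genes are known to do, chosen with earlier results of these data at hand. Shares of members set against all genes therefore describe this list. Of the 37 symbols, 36 were found among the 18487 genes of the expression table. Car9, a carbonic anhydrase, was not analysed here. Of the 36 genes, 35 reached a value of 10 or more in at least 2 libraries and were tested, together with 17275 genes in all. Adm, a secreted vasodilator peptide, lay between 1 and 8 in all 22 libraries and was not tested.

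Each compound and the group labelled NC had 2 libraries of poly(A)-selected RNA from the same line, which makes 22 libraries in 11 groups. Bromosporine binds bromodomains, Valproate is a histone deacetylase inhibitor, while Garcinol and CPTH2 act on acetyltransferases of histones. Chaetocin and UNC0379 inhibit histone lysine methyltransferases, MS023 inhibits type I arginine methyltransferases, and DZNep blocks the hydrolysis of S-adenosylhomocysteine. IOX1 is a broad inhibitor of oxygenases that use 2-oxoglutarate, and the label OICR is not spelled out. NC was the reference because its label names no compound. The labels give neither doses nor exposure times, nor the oxygen level of the cultures. All libraries come from 1 line, and nothing says whether the 2 libraries of a group were separate cultures, so the p-values measure only the spread between these libraries, which may be technical.

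Cells sense oxygen through the hypoxia-inducible factors (HIFs). Prolyl hydroxylases of the EGLN family, which are oxygenases that use 2-oxoglutarate, mark the HIF1A subunit for destruction while oxygen is present. When oxygen is short, HIF1A escapes, pairs with ARNT, binds a short core motif near its target genes and raises glucose uptake, glycolysis, lactate export and the growth of vessels. Embryonic stem cells run glycolysis at a high rate even in the presence of oxygen, so many of these transcripts are abundant in them.

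The values are normalised read counts, given as whole numbers. Their distribution had been made nearly identical in all libraries, with a median of 409, a maximum of 221616 and totals between 38403767 and 38419709, so the depth reached in each library is unknown. At the top of that distribution a value is a rank slot. Gapdh, the glyceraldehyde phosphate dehydrogenase, took only 2 values, 221616 in 17 libraries and 123460 in the others. Pkm, the pyruvate kinase that makes pyruvate, took 6 values, and 11 libraries shared 123367. Slc2a3, a glucose transporter, took 7 values, and 5 libraries shared 49547. Differences of these genes are therefore coarse. Pseudogenes and other genes share much sequence with some members, and the deposited counting could divide reads between them. The share of 31-base stretches also found in other genes was 77.2% for the enolase Eno1, 74.8% for Bnip3, 68.3% for Pgk1 and 0% for Egln3, P4ha2, Ero1l and Aldoc. Values of Eno1, Bnip3 and Pgk1 are for that reason uncertain. The share was 54.9% for Mif, 50.9% for Pkm, 42.1% for Pgam1 and 34.2% for Aldoa and Ldha. The same limit holds for these genes. All 10 markers of embryonic stem cells were at 10 or more in all libraries.

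All 10 compounds were compared with the same 2 NC libraries with limma on log2(value + 1). To be called, a gene had to change more than 2-fold with an adjusted p (Benjamini-Hochberg) under 0.05. Changes below are differences in log2 units, the compound minus NC, with their standard error (SE). Over the 350 pairs of member and compound, 13 were called, 11 lower and 2 higher, and they involved 11 of the 35 members. Of these calls, 10 came with DZNep, with which 11.4% of all genes were called. With the other compounds the share of all genes called lay between 0% (UNC0379) and 5.28% (Valproate). The share called with any compound is not given here for all genes, so 11 of 35 describes the members alone. A test over all 11 groups (limma's moderated F) found a difference for 13 of the 35 members (37.1%), against 29.7% of all genes. These were Egln3, Vegfa, Bnip3, Bnip3l, Pdk1, P4ha2, Ero1l, Pfkl, Pfkp, Pfkfb3, Aldoc, Tpi1 and Pgk1. Of them, Bnip3l, Pdk1, Pfkl and Pfkp were called against NC with no compound. Bhlhe40 and Slc2a3, both called lower with DZNep, did not pass the F test (adjusted p = 0.0568 and 0.0643).

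**Figure D1:**
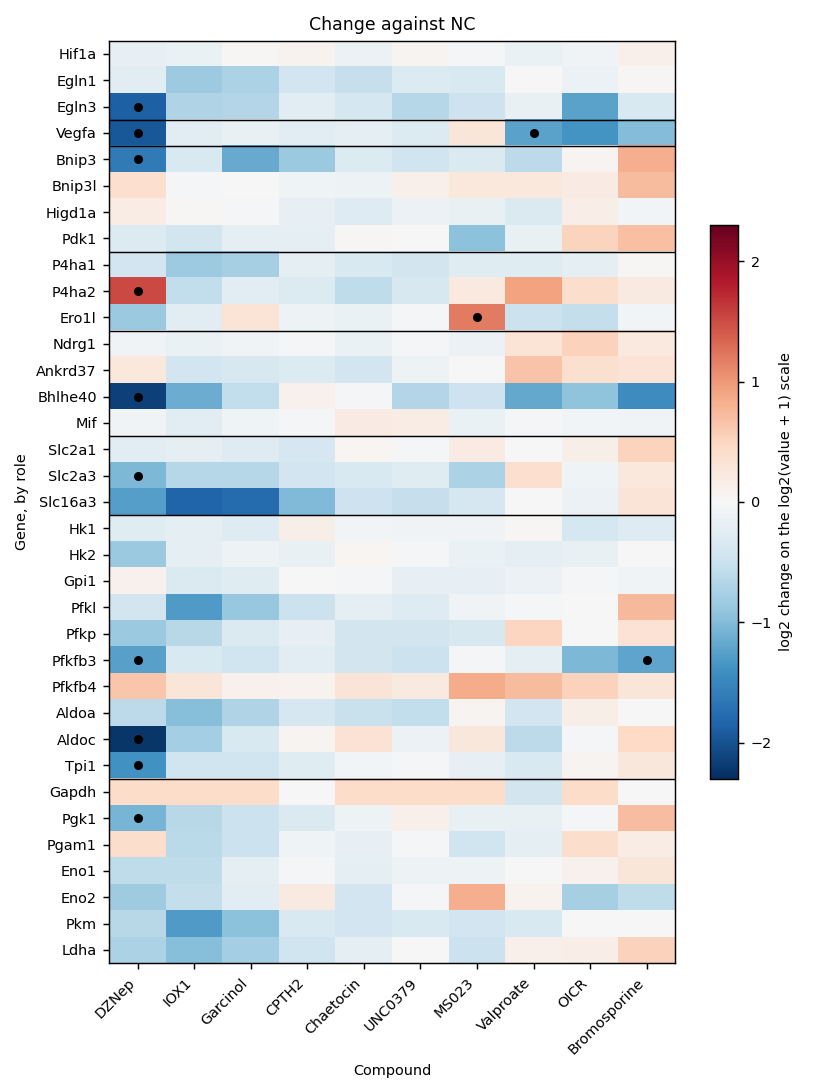
Change of each tested member (rows, ordered by role) with each compound (columns), as the difference of mean log2(value + 1) from NC over 2 libraries, with called pairs marked. Most marks stand in the DZNep column, where 9 members were called lower and 1 higher, and the IOX1 column is mostly below 0 with no mark.

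With DZNep 10 members were called, 9 of them lower, among them the angiogenic factor Vegfa, the oxygen sensor Egln3 and the glycolytic enzymes Tpi1, Pgk1 and Aldoc. Counted over the tested members, 9 of 35 were called lower, while 6.14% of all genes were, and 1 of 35 was called higher, against 5.27% of all genes. In both directions together, 28.6% of the members and 11.4% of all genes were called. The median change was -0.59 over the members and -0.04 over all genes. In both DZNep libraries 20 members (57.1%) lay below both NC libraries, against 32.4% of all genes. Fewer expressing cells and less RNA per cell cannot be told apart in these bulk libraries.

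Egln3, the prolyl hydroxylase that marks HIF subunits and is itself a HIF target, had values of 670 and 482 in NC and of 135 and 175 with DZNep. Both DZNep libraries were far below both NC libraries and were the lowest of all 22. The change was -1.88 (SE 0.29, n = 2 libraries per group, limma adjusted p = 0.000485). The gene lies at chr12:54178981-54203860 on the minus strand of mm10. Hif1a, which encodes the oxygen-regulated subunit itself, stayed between 9187 and 13107 in all libraries. Its values were 11061 and 11208 in NC and 10025 and 9533 with DZNep, a narrow gap (-0.19, SE 0.12, adjusted p = 0.27). The RNA of Hif1a varied little throughout, with an adjusted p of 0.319 over the 11 groups, and protein was not measured. Egln1, the main HIF prolyl hydroxylase in most cells, had 766 and 759 in NC and 517 and 804 with DZNep, so that the groups overlapped.

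Vegfa, the secreted growth factor that draws in vessels, had 6164 and 3822 in NC and 1266 and 1253 with DZNep. The DZNep libraries hardly differed from each other and were the lowest of all. The change was -1.95 (SE 0.30, adjusted p = 0.000477). Bnip3, a receptor on mitochondria that leads to their removal, had 766 and 512 in NC and 255 and 160 with DZNep. These groups did not overlap either, and the change was -1.63 (SE 0.43, adjusted p = 0.0146). Its relative Bnip3l did not follow it, with 1557 and 1679 in NC and 2399 and 1844 with DZNep (0.38, SE 0.13, adjusted p = 0.0542). Bhlhe40, a transcriptional repressor, had 3446 and 1464 in NC and 649 and 390 with DZNep. The NC libraries were far apart and the DZNep libraries below both of them (-2.16, SE 0.52, adjusted p = 0.00855).

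P4ha2, a catalytic subunit of the collagen prolyl hydroxylase, went the other way, with 92 and 81 in NC and 305 and 204 with DZNep. It was the only member called higher with DZNep (1.52, SE 0.30, adjusted p = 0.00265). Its paralogue P4ha1 had 2523 and 1446 in NC and 1246 and 1587 with DZNep, overlapping groups. Ero1l, the oxidase that forms disulfide bonds in the endoplasmic reticulum, had 3547 and 2478 in NC and 1894 and 1420 with DZNep. It passed the test without reaching 2-fold (-0.85, SE 0.23, adjusted p = 0.0166).

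The glycolytic members called with DZNep lay between glucose import and Pgk1. Of the 7 members of lower glycolysis only Pgk1 was called, and no member after it in the pathway was. Slc2a3, the high-affinity glucose transporter GLUT3, had 123593 and 54032 in NC and 49547 and 32168 with DZNep. The NC libraries differed from each other more than the lower of them did from the DZNep libraries, although the groups did not overlap (-1.03, SE 0.34, adjusted p = 0.0395). Slc2a3 took only 7 values in all libraries, so its change and SE are coarse. Its change was -0.44 without NC replicate 1 and -0.72 without DZNep replicate 2. The call was also lost when either library of Garcinol, MS023, OICR or UNC0379 was left out. Pfkfb3, which makes the activator of phosphofructokinase, had 1105 and 709 in NC and 403 and 344 with DZNep. Both DZNep libraries were clearly lower (-1.25, SE 0.22, adjusted p = 0.00116). Aldoc, one of the aldolases, had 640 and 336 in NC and 148 and 65 with DZNep. No other library was below the higher of the DZNep values (-2.23, SE 0.52, adjusted p = 0.00691). The far more abundant aldolase Aldoa had 67675 and 49443 in NC and 36642 and 39262 with DZNep and was not called.

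Tpi1, the triose phosphate isomerase, had 11200 and 10168 in NC and 4520 and 3644 with DZNep. The NC libraries were close together and the DZNep libraries were the lowest of the 22 (-1.39, SE 0.28, adjusted p = 0.00283). Other genes hold 18.5% of the 31-base stretches of Tpi1. Pgk1, the phosphoglycerate kinase and a textbook HIF target, had 33603 and 22763 in NC and 14022 and 12502 with DZNep. Both DZNep libraries again lay below all others (-1.06, SE 0.24, adjusted p = 0.00588). Hk2, the inducible hexokinase, had 12565 and 9540 in NC and 8544 and 4298 with DZNep. The DZNep libraries were below both NC libraries but far apart (-0.85, SE 0.24, adjusted p = 0.0216), and the change did not reach 2-fold. Hk2 was called without NC replicate 2 (-1.05) or without DZNep replicate 1 (-1.35), and its change was -0.36 without DZNep replicate 2. Pfkp, the platelet-type phosphofructokinase, had 12912 and 8477 in NC and 6922 and 4818 with DZNep and likewise passed the test under 2-fold (-0.86, SE 0.25, adjusted p = 0.025). Counting these, 13 members passed at any fold, against 23.6% of all genes.

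Other steps of glycolysis were not called with DZNep. Ldha, which turns pyruvate into lactate, had 18342 and 15612 in NC and 11521 and 9098 with DZNep (-0.72, SE 0.39, adjusted p = 0.19). Pgam1, the phosphoglycerate mutase, had 26592 and 28536 in NC and 41831 and 31970 with DZNep, above both NC libraries (0.41, SE 0.40, adjusted p = 0.497). Slc2a1, the transporter GLUT1, had 6726 and 6024 in NC and 7223 and 4002 with DZNep, values that enclosed those of NC. In all, 5 of 20 members of glycolysis and sugar transport were called lower, and of the 15 other members 4 were called lower and 1 higher.

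**Figure D2:**
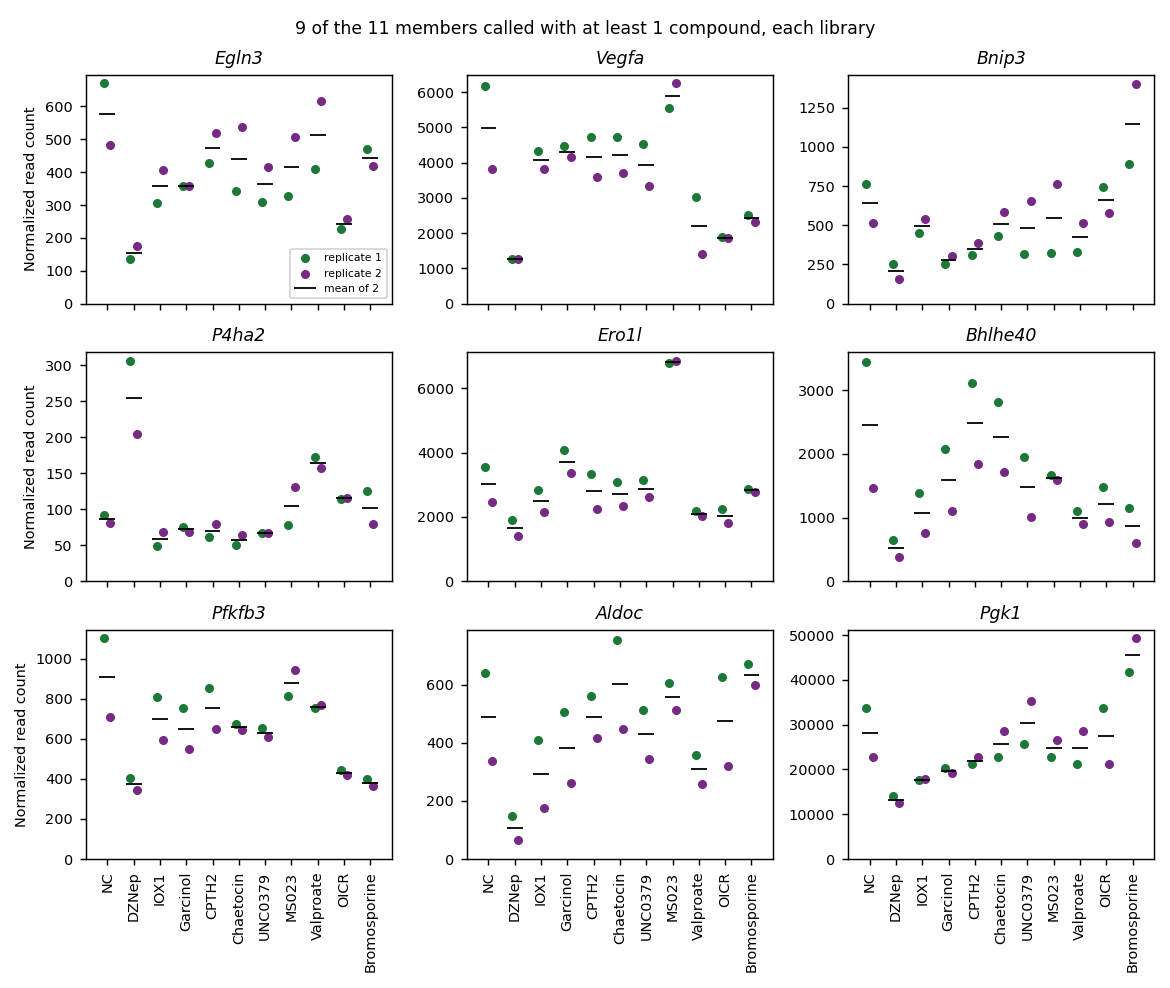
Normalised read counts (vertical axes, from 0) of 9 of the 11 called members in each of the 11 groups, as 1 point per library with a line at the mean of the 2. The DZNep points sit lowest for Egln3 (135 and 175), Vegfa (1266 and 1253) and Pgk1 (14022 and 12502), P4ha2 is highest there (305 and 204), and Ero1l is highest with MS023 (6785 and 6847).

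The number of calls depended on single libraries. All 9 members called lower with DZNep were higher in NC replicate 1 than in NC replicate 2. The same order held for 27 of the 35 members but for 44.1% of all genes. Without NC replicate 1 the called members were Egln3, Vegfa, P4ha2 and Tpi1, that is 4, and without DZNep replicate 2 they were 5, these and Pfkfb3. A fit of the DZNep and NC libraries alone called 3 (Egln3, Vegfa and Tpi1). Fibroblast markers also stood high with DZNep, with summed values of 1612 and 1874 against 528 and 1368 in NC and a range of 27 to 1874 over all libraries. With Valproate the sums were 1554 and 1422. Col3a1 alone had 4 and 743 in the NC libraries, and 2 of the fibroblast markers were called with DZNep. Of the 7 markers in that list Dcn was at 0 in all libraries, and Lum was at 0 in both NC libraries. The summed markers of embryonic stem cells were 307233 and 296802 with DZNep and 248087 and 240917 in NC. Neural and mesoderm markers summed to 1345 and 1010 with DZNep, the last the lowest of all libraries, and to 2514 and 2347 in NC, and 3 of these 6 markers were called. Of the primitive endoderm markers 2 of the 4 found were called, with sums of 354 and 593 against 413 and 318 in NC. Of the 10 markers of embryonic stem cells 2 were called as well. Of the 4 trophoblast markers found 1 was called, with sums of 3647 and 3115 against 3530 and 3135 in NC. Among all genes 11.4% were called with DZNep. The directions of the marker calls are not given here. The part of these markers in the changes was not tested.

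The DZNep libraries were also set against the mean of the other 9 compounds, a comparison that uses no NC library. In it 7 of 35 members (20%) were called, against 12.1% of all genes. Egln3 (-1.33), Vegfa (-1.44), Bnip3 (-1.28), Bhlhe40 (-1.45), Aldoc (-2.14) and Tpi1 (-1.23) were lower, and P4ha2 (1.56) was higher. Slc2a3 (-0.75), Pfkfb3 (-0.75) and Pgk1 (-0.94) passed the test without reaching 2-fold. Without DZNep replicate 1 the count was 11.

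Regions upstream of the members were read for the core that HIF binds, which is spelled ACGTG or GCGTG, on either strand. RefSeq start sites (build GRCm38.p6) were listed for 32 of the 36 members. In the 250 bases before a start, ACGTG was found for 18 of the 32 (56.2%) and for 18.5% of 27025 genes. GCGTG was found for 21 (65.6%) and for 30.9% of genes, and 1 or the other for 28 (87.5%) and for 41.5%. The members were listed partly as known HIF targets, so these shares describe the list. A match is only a match of letters. Before the first of its 2 listed starts Ldha held ACGTG at 3 places, Slc16a3 held it at 2 and Tpi1 held neither spelling. P4ha2, called higher with DZNep, held ACGTG too. So did Hif1a, Ankrd37, Slc2a1 and Pgam1, which were not called against NC with any compound. Whether the motif went with a change was not tested. Sequences are given for 4 genes that were lower with DZNep, since they show how the core sits in front of an oxygen sensor, a mitochondrial gene and 2 glycolytic genes. Capitals mark ACGTG or, where it lies on the other strand, CACGT, and each sequence runs 5′ to 3′ in the direction of the gene and ends just before the start site. They lie at chr12:54203875-54204124 (Egln3, minus strand), chr7:138909507-138909756 (Bnip3, minus), chrX:106186850-106187099 (Pgk1, plus) and chr6:82774455-82774704 (Hk2, minus).
Egln3: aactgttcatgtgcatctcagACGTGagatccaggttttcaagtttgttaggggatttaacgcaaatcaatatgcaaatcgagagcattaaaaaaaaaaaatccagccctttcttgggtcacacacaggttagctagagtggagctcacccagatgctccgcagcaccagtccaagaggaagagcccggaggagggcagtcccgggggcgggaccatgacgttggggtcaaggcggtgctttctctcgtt
Bnip3: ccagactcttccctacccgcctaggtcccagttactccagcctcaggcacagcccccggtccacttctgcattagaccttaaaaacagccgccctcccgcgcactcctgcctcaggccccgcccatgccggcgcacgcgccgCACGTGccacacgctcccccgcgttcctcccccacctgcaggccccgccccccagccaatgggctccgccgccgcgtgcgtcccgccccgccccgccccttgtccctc
Pgk1: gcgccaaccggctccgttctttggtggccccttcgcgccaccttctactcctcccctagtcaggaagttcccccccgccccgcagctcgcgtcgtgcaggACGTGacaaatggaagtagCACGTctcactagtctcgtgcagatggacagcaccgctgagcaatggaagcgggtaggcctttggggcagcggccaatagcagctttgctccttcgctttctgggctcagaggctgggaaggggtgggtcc
Hk2: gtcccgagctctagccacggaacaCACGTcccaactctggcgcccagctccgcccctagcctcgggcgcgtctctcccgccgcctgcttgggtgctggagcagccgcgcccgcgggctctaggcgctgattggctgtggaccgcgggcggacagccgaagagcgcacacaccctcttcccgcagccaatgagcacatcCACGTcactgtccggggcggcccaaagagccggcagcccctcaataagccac
In Bnip3 the core spelled ACGTG lies on both strands at once, overlapping itself in a palindrome whose first base is 108 bases before the start. The spelling GCGTG, on either strand, is not marked. Bnip3 also holds it, beginning at -117, -99 and -35 from the start. In Pgk1 the motifs begin 150 and 131 bases before the start and face each other. In Hk2 both lie on the opposite strand, and in Egln3 the single motif begins 229 bases upstream.

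**Figure D3:**
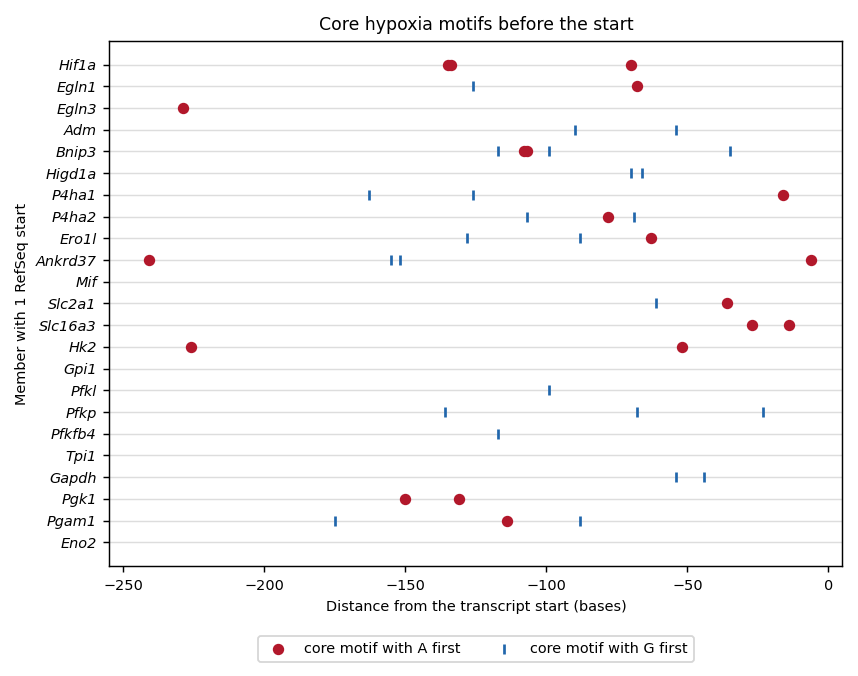
Positions of the core motif with A first (circles) or G first (ticks) in the 250 bases before the start of each member with a single listed RefSeq start, as the distance from that start in bases. Bnip3 holds both forms, Pgk1 and Hk2 hold 2 cores with A first, and Tpi1 is empty.

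IOX1 belongs to a class of inhibitor aimed at the enzyme family that includes the EGLN hydroxylases. Most members were lower with IOX1, and none was called in the main fit, which took no account of the replicate number. A fit with the replicate number as a block did call some members, which are named in the closing section. In limma, 0 of 35 were called against 0.116% of all genes (20 genes), while 11 members had an unadjusted p under 0.05, all of them lower, against 12.4% of all genes in both directions and 6.59% lower. No other tool was run. Of the 35 members 32 had a change below 0, against 51.7% of all genes. All compounds were compared with the same 2 NC libraries, and with several others most members also had changes below 0, 31 with Garcinol (50.5% of all genes), 28 with Chaetocin (53.9%), 28 with CPTH2 (51.7%), 27 with DZNep (52.3%) and 27 with UNC0379 (50.6%). With IOX1 the median was -0.45 over the members and -0.02 over all genes. Both IOX1 libraries lay below both NC libraries for 20 members (57.1%), against 24.2% of all genes. Above both NC libraries lay 1 member, Pfkfb4, a relative of Pfkfb3, against 19.4% of all genes.

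Pfkl, the liver-type phosphofructokinase, had 5866 and 4020 in NC and 1613 and 2386 with IOX1. The groups were well apart, and its adjusted p of 0.0905 was the lowest of any member with IOX1 (-1.31, SE 0.28). Adjustment over all 10 contrasts together called Pfkl. Against the mean of the other 9 compounds Pfkl was called lower (-1.12, SE 0.21, adjusted p = 0.0229), the single member called in that comparison, where 0.486% of all genes were. That call was lost when either IOX1 library was left out. Slc16a3, the lactate exporter MCT4, showed the deepest fall, from 1420 and 1209 in NC to 238 and 559 with IOX1. The groups did not overlap, but the IOX1 libraries were far apart and the test was not passed (-1.84, SE 0.70, adjusted p = 0.301).

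Ldha had 6858 and 10799 with IOX1, against 18342 and 15612 in NC (-0.98, SE 0.39, adjusted p = 0.317). Pkm had 36561 and 67576, against the shared slot of 123367 in both NC libraries (-1.31, SE 0.40, adjusted p = 0.206). Pgk1 had 17540 and 17912, and the aldolase Aldoa had 25663 and 33724 against 67675 and 49443 in NC. All of these IOX1 libraries were below both NC libraries. Among the oxygen sensors, Egln3 had 306 and 407 (-0.69, SE 0.29, adjusted p = 0.345) and Egln1 had 276 and 659 (-0.84, SE 0.54, adjusted p = 0.566). Vegfa had 4339 and 3822 with IOX1, inside the range of NC. Gapdh had the largest rise of any member, 0.42, which stems from 1 NC library at 123460 while all other NC and IOX1 libraries were at 221616.

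**Figure D4:**
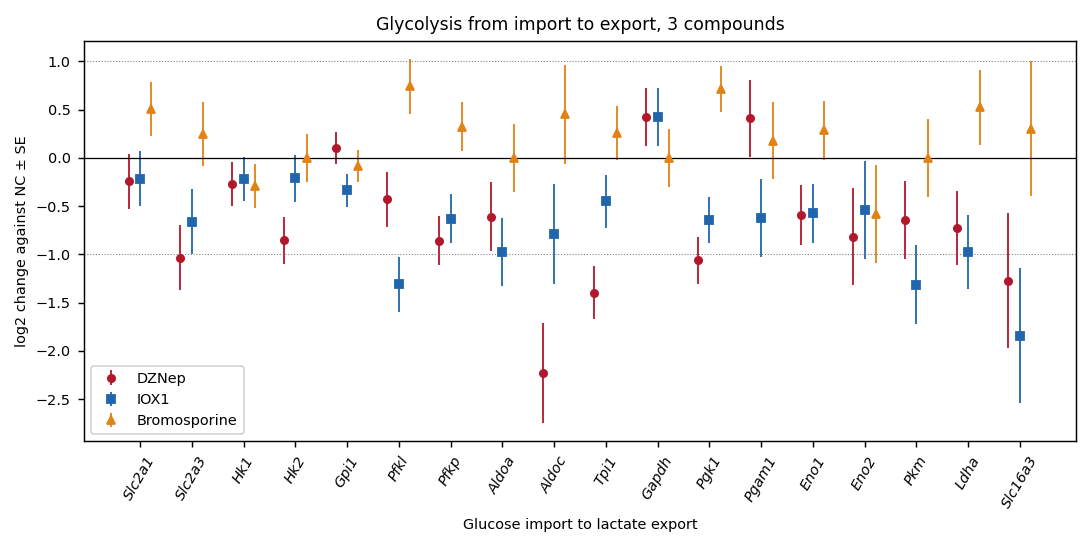
Change of the members of sugar transport and glycolysis with DZNep, IOX1 and Bromosporine, from glucose import to lactate export, as differences of mean log2(value + 1) from NC over 2 libraries with their SE, and with dotted lines at a 2-fold change. IOX1 and DZNep lie mostly below 0, and Bromosporine lies above 0 at Pfkl, Pgk1 and Ldha.

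Some members followed the replicate number whatever the compound. Bhlhe40, Hk1 and Aldoc were higher in replicate 1 than in replicate 2 in 11 of 11 groups, and Ankrd37, Higd1a and Eno1 were lower in all 11. Egln1 was lower in replicate 1 in 10 of 11 groups. For 6 members (17.1%) the order was the same in all groups, against 21% of all genes. The labels do not say what the numbers stand for.

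Garcinol and CPTH2, both acetyltransferase inhibitors, gave no called member. With Garcinol 0 were called, against 0.00579% of all genes, and 6 members had an unadjusted limma p under 0.05, all lower, where 3.62% of all genes had one in either direction. These were Egln3, Bnip3, P4ha1, Slc16a3, Pfkl and Pkm. Slc16a3 had 320 and 458 with Garcinol, less than in either NC library (-1.77, SE 0.70, adjusted p = 0.967). Both Garcinol libraries lay below both NC libraries for 16 members (45.7%, against 17.4% of all genes) and above them for none (0%, against 16.2%). With CPTH2 0 members were called, against 0.00579% of all genes, and 0 had an unadjusted p under 0.05, against 0.944%. In both CPTH2 libraries 8 members (22.9%) lay below both NC libraries, against 7.96% of all genes.

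Chaetocin and UNC0379 also left the members uncalled. With Chaetocin 0 members were called (0.0174% of all genes), and 0 had an unadjusted limma p under 0.05, against 4.72% of all genes. With UNC0379 0 members and 0 genes were called (0%), and 2 members, Egln3 and Pfkfb3, had an unadjusted p under 0.05, against 6.08% of all genes. Egln3 had 308 and 417 with UNC0379 (-0.66, SE 0.29, adjusted p = 0.792). Pfkfb3 had 652 and 609, just under the lower NC library at 709 (-0.49, SE 0.22, adjusted p = 0.797).

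The comparison without NC also left the members of these groups uncalled. Against the mean of the other 9 compounds limma called 0 members with Chaetocin (0.127% of all genes), CPTH2 (0.0405%), Garcinol (0.0579%), OICR (0.179%) and UNC0379 (0.0405%). An unadjusted p under 0.05 was found for 4 members with Chaetocin (9.99% of all genes), 3 with CPTH2 (11.4%), 6 with Garcinol (6.1%), 7 with OICR (10.2%) and 1 with UNC0379 (6.85%). Of the Garcinol members, Vegfa and Ero1l lay above the mean of the others, and Bnip3, P4ha1, Slc16a3 and Pfkl lay below it.

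**Figure D5:**
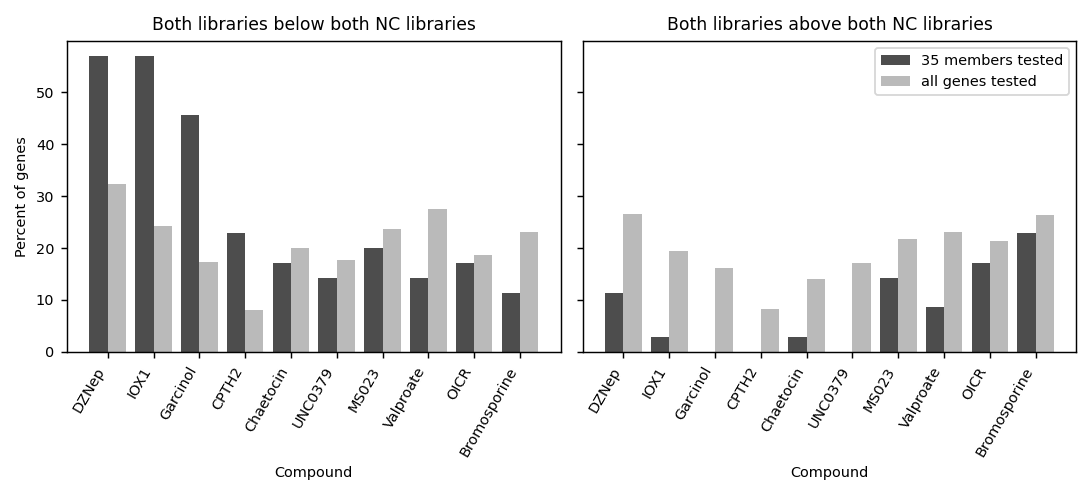
Percentage of the 35 members and of all 17275 tested genes whose 2 libraries of a compound both lay above or both below the 2 NC libraries, for each compound. The share of members below NC is 57.1% with DZNep and IOX1 and 45.7% with Garcinol, against 32.4%, 24.2% and 17.4% of all genes.

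Vegfa and Pfkfb3 were lower than NC with several other compounds. With Valproate, Vegfa had 3030 and 1399, below both NC libraries, and it was the single member called (-1.24, SE 0.30, adjusted p = 0.0178), where 5.28% of all genes were. The call was lost without NC replicate 1 (-0.89) and without Valproate replicate 2 (-0.68). Valproate against the mean of the other 9 compounds gave 0 called members with limma, against 7.74% of all genes, and 8 members with an unadjusted p under 0.05, against 33.6%. With OICR, Vegfa had 1878 and 1850 (-1.38, SE 0.30, adjusted p = 0.0578) and Egln3 had 226 and 257 (-1.23, SE 0.29, adjusted p = 0.0821). All 4 values were below both NC libraries of their gene. Pfkfb3 had 442 and 418 with OICR (-1.04, SE 0.22, adjusted p = 0.0506). With OICR 0 members were thus called, against 0.388% of all genes, and 6 had an unadjusted p under 0.05, against 10.7%. Adjustment over all 10 contrasts together called these 3 genes, and so did a fit with the replicate number as a block. In the main fit 1 was called when NC replicate 2 (Pfkfb3) or either Valproate library (Vegfa) was left out.

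With Bromosporine, Pfkfb3 had 397 and 365, close together and below both NC libraries. It was the single member called (-1.22, SE 0.22, adjusted p = 0.00591), against 3.34% of all genes, and the call was lost without NC replicate 1 (-0.90). Vegfa had 2527 and 2321 with Bromosporine (SE of the change 0.30, adjusted p = 0.0711) and Bhlhe40 had 1148 and 597 (-1.44, SE 0.52, adjusted p = 0.136), both under the NC libraries. When either Valproate library was left out, Vegfa was called as well, which gave 2 members.

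Bnip3l and Pdk1 rose with Bromosporine, and Bnip3, Pfkl and Pgk1 were higher with it than with the mean of the other compounds. Bnip3l had 2823 and 2563 against 1557 and 1679 in NC and passed the test under 2-fold (0.73, SE 0.13, adjusted p = 0.00624). Pdk1, the kinase that holds back pyruvate dehydrogenase, had 1110 and 1114 against 744 and 633 in NC (0.70, SE 0.18, adjusted p = 0.0446). Both genes were above NC in both libraries. Against the mean of the other 9 compounds 3 members were called, against 5.04% of all genes, and all 3 were higher, against 0.787%. These were Bnip3 with 893 and 1399 (1.46, SE 0.32, adjusted p = 0.0106), Pfkl with 7666 and 8602 (1.16, SE 0.21, adjusted p = 0.00334) and Pgk1 with 41831 and 49312 (1.04, SE 0.18, adjusted p = 0.00225). Without Bromosporine replicate 2 none of them was called. Slc2a1 had its largest change with Bromosporine, from 6726 and 6024 in NC to 8377 and 9790, which did not pass the test (0.51, SE 0.28, adjusted p = 0.368).

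With MS023 Ero1l rose and Pdk1 fell. Ero1l had 6785 and 6847 with MS023, against 3547 and 2478 in NC, and no other library reached these values. It was the single member called (1.20, SE 0.23, adjusted p = 0.0174), against 0.973% of all genes. The call was lost when any 1 of the 2 MS023 or 2 NC libraries was left out, while the change stayed between 0.94 and 1.46. Against the mean of the other 9 compounds Ero1l (1.45, SE 0.17, adjusted p = 0.000302) and Vegfa (1.03, SE 0.22, adjusted p = 0.0115) were called higher, 2 members against 2.74% of all genes. Vegfa had 5541 and 6247 with MS023, which overlapped NC (0.28, adjusted p = 0.749). Vegfa was not called in that comparison without MS023 replicate 1 or without Valproate replicate 2. Pdk1 was lowest with MS023, at 321 and 395, and passed the test against NC under 2-fold (-0.94, SE 0.18, adjusted p = 0.0184).

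Further members passed no test after adjustment. Hk1, the hexokinase found in most tissues, lay between 4938 and 8923, Gpi1, the glucose phosphate isomerase, between 19820 and 30880, and Mif, a cytokine, between 11338 and 17952. Ndrg1 ranged from 297 to 688, Higd1a, a protein of the inner mitochondrial membrane, from 1240 to 2325 and Ankrd37 from 44 to 231. The neuronal enolase Eno2 was low, between 43 and 241, as was Pfkfb4, between 47 and 108. Pfkfb4 had an unadjusted limma p under 0.05 against NC with DZNep, MS023, OICR and Valproate. With each of these its 2 libraries lay above both NC libraries, which were at 53 and 51. Eno1 ranged from 17988 to 45038. None of these 9 genes was called in any comparison with NC, and the F test found no difference among the 11 groups for them. That does not show that they were unchanged.

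Further genes of the pathways came from 3 lists, and 46 of their 50 genes were tested. With DZNep 2 of the 46 were called higher and 4 lower, 6 in all, where 11.4% of all genes were called (5.27% higher and 6.14% lower). The count is thus near the share of all genes. Epas1, which encodes the HIF2A subunit, had 537 and 715 in NC and 1387 and 1199 with DZNep (1.06, SE 0.28, adjusted p = 0.0158). Among the 7 regulators of the HIF pathway it was the only one called. Both DZNep libraries of Epas1 were above both NC libraries.

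Of the 22 other HIF targets 3 were lower with DZNep. Stc2, a secreted glycoprotein, had 1590 and 909 in NC and 193 and 88 with DZNep, a change larger than that of any member (-3.19, SE 0.49, adjusted p = 0.000504). Loxl2, which cross-links collagen, went from 103 and 61 to 28 and 17 (-1.81, SE 0.36, adjusted p = 0.00272). Its values are uncertain, since other genes hold 47.3% of its 31-base stretches. Pgm2, a phosphoglucomutase, went from 1140 and 896 to 380 and 498 (-1.21, SE 0.29, adjusted p = 0.00789). In all 3 genes the groups did not overlap.

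With Valproate 3 of the 46 were called, all lower, where 5.28% of all genes were called and 2.55% lower, again near the share of all genes. Stc2 had 329 and 123 (-2.57, SE 0.49, adjusted p = 0.0052). Gys1, the glycogen synthase, went from 2317 and 2376 in NC to 663 and 1230 (-1.38, SE 0.31, adjusted p = 0.013). Eno3, the muscle enolase, went from 195 and 186 to 83 and 77, with both pairs of libraries close together (-1.24, SE 0.15, adjusted p = 0.000281). Over the 11 groups 13 of the 46 (28.3%) differed, against 29.7% of all genes.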

How the data were processed

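The deposited values are scores, here normalised read counts that the authors rounded to whole numbers. The submitters' processing notes name mm10, Bowtie2 2.2.5, RSEM and bcl2fastq. The study's methods, which do not mention the compounds, describe normalisation with EDASeq at its full setting. That step hides depth, and a change common to most genes would be lost in it, and no raw counts were used here. All columns matched a sample title (0 unmatched).

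The scale of analysis was log2(value + 1), and limma 3.58.1 in R 4.3.3 made the tests. Genes at 10 or more in at least 2 of 22 libraries were kept (17275, or 93.4%). A model of 11 group means was fitted (11 residual degrees of freedom, eBayes with trend), and two-sided p-values were adjusted by Benjamini-Hochberg over all tested genes within each comparison. The members, the 3 lists of further pathway genes and the markers were chosen with earlier results of these data known. Members called against NC, Hif1a, Egln1, Egln3, Vegfa, Slc2a1, Hk2, Pgk1, Ldha and the members with the largest rise and fall with IOX1 were to be named with their values. Other members and pairs were named after their values were seen. Some genes of the further lists are counted but not reported here singly. Lists of markers of 4 other cell types were summed in each library. Sums were 186 to 593 for primitive endoderm, 3070 to 5688 for trophoblast, which is mostly Tfap2c, 1010 to 2733 for neural and mesoderm genes, and 27 to 1874 for fibroblasts. The fit was tested on simulated data. Positions and shared 31-base stretches came from GENCODE M21 (mm10). Alternatives were a pseudocount of 10, no filter, median-ratio rescaling, the replicate number as a block, the compound and NC libraries alone, adjustment over all 10 contrasts, and leaving out each library. A table of the authors' means per group was not used. Python 3.11.15 and matplotlib 3.10.9 drew the plots.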

Additional observations from a re-analysis of the deposited data

How the results depend on the processing

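Median-ratio rescaling, a pseudocount of 10 and testing every gene without the filter kept the number of called members within 1.5 times in all comparisons, and no named change reversed in any alternative. Rescaling moved the median of all genes by less than 0.1 and took Slc2a3 with DZNep under 2-fold (-0.99). Libraries with the same replicate number shared part of their differences, although no label says that the numbers pair them. Differences between replicates 1 and 2 correlated at 0.0535 to 0.298 between groups, over 0.1 for 51 of 55 pairs of groups. For 21% of all genes the order of the replicates was the same in all 11 groups. The main fit took no account of this shared part, which stays in its spread. As a hint from the data, 20 of 22 libraries had their best match in another group in a library of the same number, and the median correlation was 0.948 for libraries of 1 group, 0.948 for the same number in different groups and 0.938 for different numbers. The labels do not say what the numbers mark. With the replicate number as a block, 26 members instead of 13 differed over the 11 groups, and the called members against NC became 3 with IOX1 (Bhlhe40, Pfkl and Pkm), 3 with OICR (Egln3, Vegfa and Pfkfb3), 3 with Bromosporine and 2 with Valproate. CPTH2 against the mean of the other compounds then called 1 (Bhlhe40). The shares of all genes in the fit with a block are not given here, so these counts do not set the members apart from other genes. Adjustment over all 10 contrasts gave 1 member with IOX1 (Pfkl) and 3 with OICR, while Bnip3 and Slc2a3 were no longer called with DZNep. Fitting the libraries of a compound and NC by themselves gave 3 with DZNep and 0 with Bromosporine, MS023 and Valproate. Fewer libraries enter that fit.

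Leaving out each library in turn gave the following numbers of called members against NC: 4 to 13 with DZNep, 0 to 2 with Bromosporine, and 0 to 1 with MS023, OICR and Valproate. Against the mean of the other compounds they were 5 to 11 with DZNep, 0 to 3 with Bromosporine, 1 to 3 with MS023 and 0 to 1 with IOX1 and Valproate, and 10 to 16 members differed over the 11 groups. OICR gave 1 without NC replicate 2 (Pfkfb3) or either Valproate library (Vegfa). Valproate against the other compounds gave 1 without its replicate 1 (Vegfa) or its replicate 2 (Pfkp). The cause of these differences was not tested. Egln3, Vegfa and Tpi1 remained called with DZNep in every alternative run, and depth, which is unknown, limits the lowest values, such as those of P4ha2 and Pfkfb4.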
